A study of Mus musculus with 36 samples.

Results

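The transcripts of 8 genes that glucocorticoids are known to regulate were followed in the liver and in eWAT, a label that usually stands for epididymal white adipose tissue, of mice fed a low-fat diet, a high-fat diet, or one after the other. The genes were chosen by name: Hsd11b1, Fkbp5, Tsc22d3, Zbtb16, Klf9, Sgk1, Tat and Sds. All 8 were present in both deposited count tables, which held 14052 genes in liver and 16690 in eWAT. The animals were wild-type (WT) C57BL/6 males of the F0 generation that ate chow until 6 weeks of age and were sampled at 24 weeks. The LF group then ate the diet labelled LFD for 18 weeks, the HF group ate the HFD for 18 weeks, and the HFLF group ate the HFD for 9 weeks followed by the LFD for 9 weeks. Each diet had 6 libraries in each tissue, 36 in all, numbered 1 to 6 within a group. The labels do not say that each library came from a separate mouse, so p-values measure the spread between these libraries, which could in part be technical.

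Glucocorticoids such as corticosterone enter cells and bind the glucocorticoid receptor, which chaperones hold ready in the cytoplasm. The bound receptor moves to the nucleus and binds DNA at paired short elements, where it raises the transcription of genes such as those followed here. In the liver the hormone favours the breakdown of amino acids and the making of glucose, and in adipose tissue it acts on adipocyte differentiation and on the storage and release of fat. Its blood level follows a daily rhythm and rises with stress and fasting.

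The genes lie on 8 chromosomes of the GRCm38 build: Hsd11b1 at chr1:193221634-193264075 (minus strand), Fkbp5 at chr17:28399094-28517527 (minus), Tsc22d3 at chrX:140539528-140600659 (minus) and Zbtb16 at chr9:48654297-48836222 (minus). Klf9 lies at chr19:23141226-23168134 (plus), Sgk1 at chr10:21882184-21999903 (plus), Tat at chr8:109990437-109999803 (plus) and Sds at chr5:120476526-120483932 (plus). All are protein-coding. Sds shares 360 exon bases with Plbd2 on the opposite strand, and whether strand was used in counting is unknown here, so reads of this stretch cannot be told apart.

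The 250 bases before each annotated start were read for 6 of the 8 genes from RefSeq promoters of GRCm38.p6, with 13 starts in all. Zbtb16 and Sds had no entry. The letters searched on both strands were the full receptor element (GNACA, then 3 bases of any kind, then TGTNC), its core hexamer AGAACA, which can overlap the full element but reaches beyond its end, and the E-box CACGTG, which clock proteins bind. The full element occurred in 0.387% of the 32851 windows in the table, the core hexamer in 16.1% and the E-box in 6.02%. Of the 13 starts, 1 held the full element: it was 1 of the 6 starts of Sgk1, with the element beginning 188 bases before the start. The window of this start also held the core hexamer, and an E-box that began 246 bases before the start. Windows of other Sgk1 starts and of 1 Tsc22d3 start held the core hexamer as well. The stretch around the full element is shown with 30 bases on each side, at chr10:21993672-21993744 on the plus strand, and capitals mark the element.
Sgk1: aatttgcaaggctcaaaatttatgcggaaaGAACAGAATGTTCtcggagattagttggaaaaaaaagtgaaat
The windows of Hsd11b1, Klf9 and Fkbp5 are shown because these genes were lower together in eWAT on the high-fat diet. Capitals mark the E-box of Fkbp5, which began 169 bases before the start. None of these windows held the full element or the core hexamer, and those of Hsd11b1 and Klf9 held no E-box. They lie at chr1:193242361-193242610 (minus), chr19:23140976-23141225 (plus) and chr17:28486150-28486399 (minus).
Hsd11b1: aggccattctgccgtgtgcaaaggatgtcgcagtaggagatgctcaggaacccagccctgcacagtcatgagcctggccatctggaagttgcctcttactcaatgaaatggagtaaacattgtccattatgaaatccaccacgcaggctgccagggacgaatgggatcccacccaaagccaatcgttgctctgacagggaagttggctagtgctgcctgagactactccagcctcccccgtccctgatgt
Klf9: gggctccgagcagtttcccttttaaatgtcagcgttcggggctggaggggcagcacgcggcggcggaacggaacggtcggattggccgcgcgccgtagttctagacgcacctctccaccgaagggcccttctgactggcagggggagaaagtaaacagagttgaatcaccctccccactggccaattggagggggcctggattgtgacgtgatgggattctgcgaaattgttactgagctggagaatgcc
Fkbp5: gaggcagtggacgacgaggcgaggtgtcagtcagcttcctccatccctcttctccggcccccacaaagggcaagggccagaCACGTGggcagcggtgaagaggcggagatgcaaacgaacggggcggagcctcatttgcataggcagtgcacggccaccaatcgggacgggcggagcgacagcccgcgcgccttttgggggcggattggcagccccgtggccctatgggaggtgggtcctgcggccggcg
A match or its absence describes these letters in this window and is no measure of receptor binding.

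Libraries held between 11.7 M and 23.3 M counts in liver (median 18.4 M) and between 8.94 M and 31.2 M in eWAT (median 19.03 M) (M, mega). Values are CPM, the counts of a gene per M counts of its library, scaled by TMM factors within each tissue. Both tissues held the markers of their label: 6 hepatocyte markers summed to between 75274 and 111337 CPM in liver libraries, and 6 adipocyte markers to between 12254 and 32532 CPM in eWAT. Liver LF libraries 1 to 4 stood apart, with 354 to 422 CPM of the metallothionein gene Mt2, against 0.60 to 9.33 CPM in all other liver libraries including LF 5 and LF 6. LF 1 and LF 2 also held 2.56 and 5.15 CPM of the clock-output gene Dbp, against 62.9 CPM or more elsewhere in liver. In eWAT, LF 3, LF 4 and LF 5 held 162 to 666 CPM of the hepatocyte gene Alb, more than any other eWAT library. The split of calls over all genes depended on the scaling: in liver there were 2295 higher and 2596 lower by TMM and 2952 higher and 1869 lower by upper quartiles for HF against LF, and 1432 and 1744 against 1866 and 1158 for HFLF against LF. In eWAT the calls for HFLF against HF were 1784 higher and 2458 lower by TMM and 2352 higher and 2033 lower by upper quartiles. The other scaling moved the median of all genes by less than 0.1 in each comparison on the log2 scale.

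The 8 genes differed in level by tissue. To compare genes, CPM was divided by the length of all exons in kilobases. In LF liver, Tat stood highest at 1298 ± 545 CPM per kilobase (SD, n = 6), followed by Sds at 176 ± 48.2 and Hsd11b1 at 97.9 ± 17.6. Klf9 (42.1 ± 5.84), Tsc22d3 (30.8 ± 15.9), Zbtb16 (19.4 ± 4.88), Fkbp5 (12.02 ± 3.45) and Sgk1 (5.83 ± 1.79) were lower. Neighbours in this order from Klf9 to Fkbp5 had overlapping spreads. In LF eWAT, Tsc22d3 had the highest mean at 64.5 ± 17.8 CPM per kilobase, with a spread that overlapped those of the genes next in order. Klf9 (43.6 ± 8.50), Hsd11b1 (41.3 ± 12.998) and Zbtb16 (39.7 ± 7.31) came next and lay within the spread of each other, as did Fkbp5 (24.5 ± 8.50) and Sgk1 (21.5 ± 9.21). Tat (1.52 ± 1.85) and Sds (0.988 ± 1.19), enzymes known from liver, were near the floor of the eWAT libraries. The tables were scaled separately, so levels set across tissues rest on 2 scalings.

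In eWAT on the high-fat diet, 5 of the 8 genes were lower than on the low-fat diet and 0 were higher, by edgeR's quasi-likelihood test with Benjamini-Hochberg adjustment over all 16690 genes at 0.05. Hsd11b1 fell most among the well-expressed members, 3.75-fold, followed by Zbtb16 (2.55-fold), Fkbp5 (2.40-fold) and Klf9 (1.65-fold), and Tat fell from a very low level. After the return to the low-fat diet, Hsd11b1 and Klf9 stood above the HF level and near the LF level, Zbtb16 lay between, and Fkbp5 stayed at the HF level. Tsc22d3 and Sgk1 did not pass in any eWAT comparison. In the same comparison 40.8% of all genes were called (20.2% lower), and in HFLF against HF, where 3 of the 8 genes were higher, 25.4% were called (10.7% higher). In HFLF against LF only 0.563% of all genes were called (0.222% lower), and Fkbp5 was 1 of these 94 genes.

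**Figure D1:**
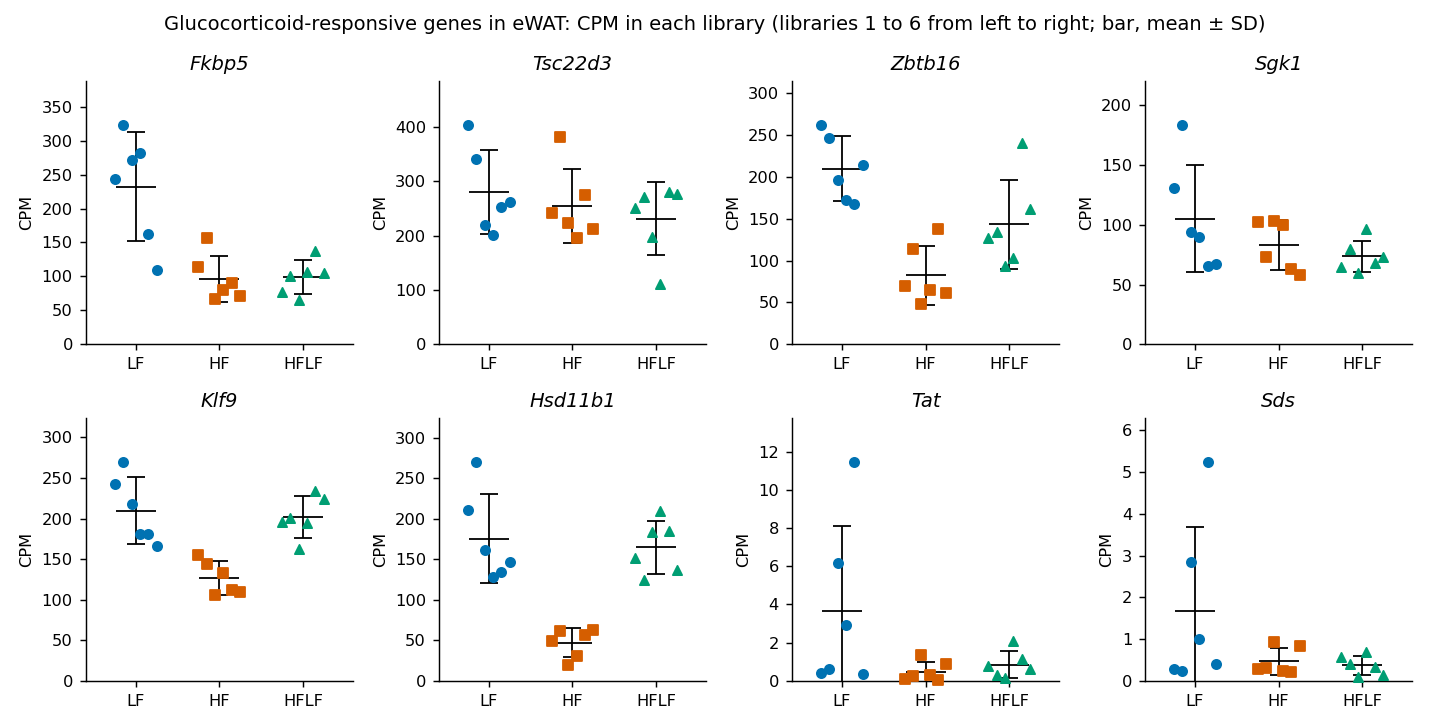
CPM of the 8 genes in each eWAT library by diet (linear axes from 0; each point 1 library, numbered 1 to 6 from left to right; bar, mean ± SD, n = 6). The HF points of Hsd11b1, Zbtb16 and Klf9 all lie under the LF points. HFLF points of Hsd11b1 and Klf9 lie in the LF range or just under it. Those of Fkbp5 lie under every LF point but LF 6, and Tat and Sds are high in LF 3, LF 4 and LF 5.

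Hsd11b1 encodes the enzyme that regenerates active glucocorticoid from its inert keto form inside cells. In eWAT it ranged from 128 to 271 CPM (median 154) in LF libraries, from 19.1 to 63.0 (median 53.5) in HF and from 125 to 209 (median 168) in HFLF. Every HF library lay under every LF and every HFLF library, while LF and HFLF overlapped throughout. It fell by 1.91 ± 0.27 on the log2 scale from LF to HF (SE, edgeR adjusted p = 7.88e-05). It was higher by 1.82 ± 0.27 in HFLF than in HF (edgeR adjusted p = 0.000719), and HFLF against LF gave -0.09 ± 0.26 (95% interval -0.59 to 0.42). Intervals here and below are nominal, made from the SE by the normal distribution, and are narrower than the test implies. In bulk tissue, fewer cells of a type and less RNA per cell cannot be told apart.

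Some adipocyte markers and all macrophage markers also differed between HF and LF eWAT. The summed adipocyte markers lay between 18383 and 32532 CPM in LF, between 12254 and 30256 in HF and between 22171 and 29152 in HFLF libraries; of the 6, Adipoq, Plin1 and Lipe were lower and Lep was higher in HF. All 6 macrophage markers were higher in HF than in LF and lower in HFLF than in HF, with summed levels between 404 and 812 CPM in LF, between 955 and 5431 in HF and between 707 and 1954 in HFLF libraries, and none of these markers was at 0 in any eWAT library. Fibroblast and progenitor markers summed to 2358 to 3489 CPM in LF and 3588 to 11981 in HF, with Col1a1 and Col3a1 the 2 of 6 that were higher. Erythroid markers, which stand for red blood cells, were lower in HF than in LF for 4 of 5 and higher for 0 (median log2 fold change -0.92), with summed levels between 288 and 591 CPM in LF, between 93.9 and 365 in HF and between 287 and 486 in HFLF libraries. HF 2, HF 5 and HF 6, whose adipocyte sums of 24847, 30256 and 28414 CPM lay inside the LF range, held 61.3, 57.1 and 63.0 CPM of Hsd11b1. These are the 3 highest HF values, and each lay under the lowest LF library. Macrophage sums in HF 2, HF 5 and HF 6 were 2194, 955 and 1212 CPM, above the highest LF sum of 812 CPM. The adipocyte sum also includes Lep, which was higher in HF, so equal sums need not mean equal cell makeup. Over the 18 libraries, with each diet's mean removed, Hsd11b1 followed the adipocyte sum (r = 0.78, permutation p = 0.00112, adjusted p = 0.0134 over 12 relations; Spearman's rho = 0.73, permutation p = 0.00355). Without the 2 libraries farthest from the median of that sum, r was 0.61. Against the macrophage sum, Hsd11b1 ran the other way and did not pass (r = -0.61, permutation p = 0.0337, adjusted p = 0.135; Spearman's rho = -0.49, permutation p = 0.0749; r = -0.41 without the 2 farthest libraries). Of the 12 relations, between 6 of the genes and these 2 sums, 1 passed. The part of the fibroblast and erythroid markers in these results was not tested.

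**Figure D2:**
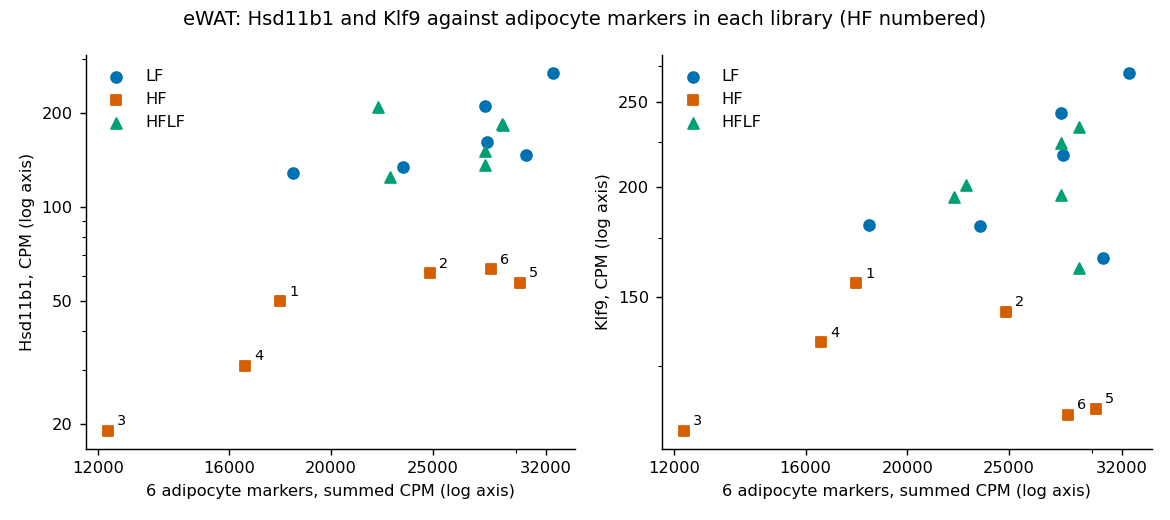
CPM of Hsd11b1 (left) and Klf9 (right) against the summed CPM of 6 adipocyte markers in the 18 eWAT libraries (log axes; circles LF, squares HF, triangles HFLF; HF libraries numbered). At adipocyte sums shared with LF, HF 2, HF 5 and HF 6 hold 57.1 to 63.0 CPM of Hsd11b1, under the LF range that starts at 128 CPM. Their macrophage sums, not drawn, lay above those of all LF libraries, so they are not matched to LF in cell makeup.

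Fkbp5 encodes a co-chaperone that binds the receptor complex and lowers its affinity for the hormone, and its induction by the receptor closes a feedback loop. In eWAT it ranged from 109 to 323 CPM (median 257) in LF, 66.4 to 157 (median 85.5) in HF and 65.2 to 137 (median 102) in HFLF. LF 1 to LF 5 lay above all HF and HFLF libraries, and LF 6 lay inside both. It fell by 1.27 ± 0.26 on the log2 scale from LF to HF (edgeR adjusted p = 0.00127) and by 1.23 ± 0.26 from LF to HFLF (edgeR adjusted p = 0.0450), and HFLF against HF gave 0.03 ± 0.26 (95% interval -0.48 to 0.54). The call against HFLF was close to the threshold. It was lost in a fit of the 2 diets alone (edgeR adjusted p = 0.0578) and without any of 9 of the 12 libraries taken out 1 at a time (LF 1, 2, 3 or 4 and HFLF 1, 2, 3, 5 or 6, adjusted p up to 0.118), with fold changes between -1.39 and -1.12.

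Klf9 encodes a zinc-finger transcription factor that receptors for glucocorticoids and thyroid hormone induce. In eWAT it ranged from 166 to 270 CPM (median 199) in LF, 106 to 156 (median 123) in HF and 162 to 234 (median 199) in HFLF. All HF libraries lay under all LF and all HFLF libraries, though narrowly. It fell by 0.73 ± 0.13 on the log2 scale from LF to HF (edgeR adjusted p = 0.000469), was higher by 0.67 ± 0.13 in HFLF than in HF (edgeR adjusted p = 0.00256), and HFLF against LF gave -0.05 ± 0.13. Its within-diet variation showed little relation to the adipocyte sum (r = 0.15, permutation p = 0.589; Spearman's rho = 0.09, permutation p = 0.747; r = -0.16 without the 2 farthest libraries); the difference between these correlations was not tested.

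Zbtb16 encodes the transcription repressor PLZF, which glucocorticoids induce in many tissues. In eWAT it ranged from 168 to 262 CPM (median 205) in LF, 47.8 to 137 (median 66.9) in HF and 94.1 to 240 (median 131) in HFLF. HF and LF libraries did not overlap, and HFLF libraries overlapped both. It fell by 1.35 ± 0.26 on the log2 scale from LF to HF (edgeR adjusted p = 0.000734) and was higher by 0.80 ± 0.26 in HFLF than in HF (edgeR adjusted p = 0.0313). HFLF against LF gave -0.55 ± 0.26 (edgeR adjusted p = 0.272). Within diets Zbtb16 ran with the adipocyte sum, though this did not pass over the 12 relations (r = 0.62, permutation p = 0.0150, adjusted p = 0.0901; Spearman's rho = 0.53, permutation p = 0.0496; r = 0.51 without the 2 farthest libraries). The HFLF against HF call was lost in a fit of the 2 diets alone (edgeR adjusted p = 0.0604) and without HF 1, 3, 4 or 6 or HFLF 5 or 6 (adjusted p up to 0.0907). The 3 genes Hsd11b1, Zbtb16 and Klf9 had HF and LF groups that did not overlap, which held for 15.8% of all genes; in HFLF against HF, Hsd11b1 and Klf9 did not overlap, against 9.44%.

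Tsc22d3 encodes GILZ, an anti-inflammatory leucine-zipper protein that glucocorticoids induce. In eWAT it ranged from 201 to 404 CPM (median 257) in LF, 196 to 382 (median 232) in HF and 110 to 281 (median 261) in HFLF. The 3 groups overlapped, with fold changes of -0.14 ± 0.23 for HF against LF (95% interval -0.58 to 0.31) and -0.28 ± 0.23 for HFLF against LF on the log2 scale. Sgk1 encodes a serine/threonine kinase that acts on ion transport and cell survival. It ranged from 65.7 to 184 CPM (median 91.8) in LF, 57.8 to 103 (median 86.2) in HF and 60.0 to 96.3 (median 70.7) in HFLF. These groups also overlapped, with LF 1 and LF 2 the highest libraries, and fold changes were -0.34 ± 0.23 (95% interval -0.79 to 0.12) for HF against LF and -0.51 ± 0.23 (edgeR adjusted p = 0.257) for HFLF against LF.

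Tat encodes tyrosine aminotransferase, the entry step of tyrosine breakdown. In eWAT it had between 1 and 260 counts per library, with 0.338 to 11.5 CPM (median 1.78) in LF, 0.0508 to 1.37 (median 0.264) in HF and 0.158 to 2.07 (median 0.708) in HFLF. The high LF values were those of LF 5 (11.5 CPM), LF 3 (6.19) and LF 4 (2.95), and these libraries held 666, 296 and 162 CPM of Alb, against 27.6 to 58.1 in the other LF libraries. The highest HF and HFLF libraries for Tat, HF 3 and HFLF 4, were also the highest of their diets for Alb, at 99.3 and 135 CPM. Tat fell by 2.90 ± 0.94 on the log2 scale from LF to HF (edgeR adjusted p = 0.0208). Without LF 5 alone it was -2.07 (edgeR adjusted p = 0.0741), and limma voom with quality weights gave -1.82 (adjusted p = 0.193). The 5 hepatocyte markers other than Cyp2e1, which adipose tissue also expresses, summed to between 33.4 and 986 CPM in LF, between 4.01 and 147 in HF and between 11.3 and 209 in HFLF libraries.

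Sds encodes serine dehydratase, which turns serine into pyruvate. In eWAT it had 2 to 119 counts per library, with 0.230 to 5.25 CPM (median 0.704) in LF, 0.203 to 0.931 (median 0.299) in HF and 0.105 to 0.692 (median 0.369) in HFLF. LF 5 and LF 3 were the highest, as for Tat, and the groups overlapped. HF against LF gave -1.84 ± 0.72 (edgeR adjusted p = 0.0505).

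The lower calls of Hsd11b1, Klf9, Zbtb16 and Fkbp5 in HF against LF held without LF 3, LF 4, LF 5, HF 3 and HFLF 4, the libraries richest in Alb (edgeR adjusted p of 0.0003 to 0.0236), and equally without LF 3, LF 4, LF 5, HF 1, HFLF 4 and HFLF 6, a choice taken from an earlier account of epididymal transcripts in these libraries (0.0021 to 0.0216). These libraries include the 3 highest LF values of Tat and of Sds, so no conclusion on Tat or Sds is drawn from the smaller sets. In both cases 4 of the 8 genes were lower, with 33.0% and 31.2% of all genes called, and the calls of Zbtb16 in HFLF against HF and of Fkbp5 in HFLF against LF were lost (Zbtb16 adjusted p = 0.0691 and 0.115, Fkbp5 0.0932 and 0.198). The epididymal marker Crisp1, the 1 of 7 such markers in the table, was at 218 CPM in LF 3 and at 0 to 7.05 CPM in all other eWAT libraries.

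Other genes of the pathway were read from lists. Of 5 measured genes for steroid supply and clearance in eWAT, H6pd, which makes the NADPH that the Hsd11b1 enzyme uses, fell by 0.63 ± 0.17 on the log2 scale from LF to HF (689 to 444 CPM, edgeR adjusted p = 0.0071) and was higher by 0.66 ± 0.17 in HFLF than in HF (edgeR adjusted p = 0.0098). Hsd11b2, the enzyme that inactivates the hormone, was higher by 1.27 ± 0.35 in HF but at 0.792 and 1.93 CPM only. The liver enzyme gene Cyp3a11 was lower by 3.18 ± 1.01 at 1.53 and 0.164 CPM, and 2 genes did not pass.

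Among 11 genes for the receptor, its chaperones and cofactors, 6 were lower and 0 higher in HF than in LF eWAT (median log2 fold change -0.30, against -0.02 over all genes). Nr3c2, the mineralocorticoid receptor, fell by 0.61 ± 0.14 on the log2 scale, the co-chaperone genes Fkbp4 and Ptges3 fell by 0.48 ± 0.10 and 0.37 ± 0.07, and the CREB coactivator gene Crtc2 fell by 0.37 ± 0.08 (edgeR adjusted p of 0.0005 to 0.0027). The glucocorticoid receptor gene Nr3c1 stood at 125 CPM in LF, 101 in HF and 145 in HFLF, lower by 0.31 ± 0.12 in HF than in LF (edgeR adjusted p = 0.0431) and higher by 0.51 ± 0.12 in HFLF than in HF (edgeR adjusted p = 0.0051). In HFLF against HF 4 of these 11 genes were higher and 1, Hspa8, was lower. Over all genes, 20.2% were called lower in HF than in LF and 10.7% higher in HFLF than in HF.

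Of 29 measured genes among 30 others known to be induced by glucocorticoids, 13 were lower, 4 higher and 12 not passed in HF against LF eWAT (median -0.45, against -0.02 over all genes). Net1, an exchange factor for RhoA, fell by 2.64 ± 0.26 on the log2 scale (350 to 56.2 CPM) and Pik3r1, a regulatory subunit of PI3-kinase, fell by 1.07 ± 0.21. Anxa1, an anti-inflammatory annexin, and Nedd9, a scaffold of cell adhesion, rose by 1.42 ± 0.26 and 1.15 ± 0.20 (edgeR adjusted p of 2.2e-05 to 0.00071 for these 4 genes). In HFLF against HF, 4 rose and 4 fell, among them Net1 (2.16 ± 0.26) and Pck1, the enzyme of glyceroneogenesis (1.92 ± 0.46), which rose, and Nedd9, which fell by 1.15 ± 0.20. In HFLF against LF, 0 of 29 passed. Of all genes, 40.8% were called in HF against LF (20.2% lower), 25.4% in HFLF against HF and 0.563% in HFLF against LF.

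Of 17 clock genes, 8 were lower and 0 higher in HF than in LF eWAT, among them the repressor genes Nr1d1 (-1.02 ± 0.19), Per1 (-0.77 ± 0.22) and Per2 (-0.71 ± 0.19) and the output gene Hlf (-1.09 ± 0.31). In HFLF against HF 7 were higher and 1, Nfil3, was lower. Over all genes, 20.2% were called lower in HF than in LF and 10.7% higher in HFLF than in HF. The count of 8 dropped to 3 without LF 3, LF 4, LF 5, HF 3 and HFLF 4, and to 3 without the other set of 6 libraries named above. Both sets leave out LF 3, LF 4 and LF 5, and the shares of all genes called in these smaller fits are given above. What the drop owes to fewer libraries was not tested. In liver, with every library kept, 5 of the 17 were higher and 3 lower in HF than in LF. There 1 was higher and 3 lower in HFLF than in LF, and 0 passed in HFLF against HF. Of all liver genes, 34.8%, 22.6% and 5.23% were called in these comparisons. The sources used here give no sampling times. The part of these genes in the results for the 8 members was not tested.

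In liver on the high-fat diet, 3 of the 8 genes were lower than on the low-fat diet and 0 higher: Tat 3.28-fold, Sgk1 1.79-fold and Sds 1.496-fold. This share was close to that of all genes, of which 34.8% were called (18.5% lower). In HFLF against LF, Tat (3.12-fold) and Sgk1 (1.85-fold) were lower, with 22.6% of all genes called (12.4% lower). In HFLF against HF, edgeR called 0 of the 8, with 1 (Tsc22d3) at an unadjusted p under 0.05 and 5.23% of all genes called, while DESeq2 and limma voom each called Tsc22d3. No liver call of edgeR for the 8 genes held without LF libraries 1 to 4, which leaves 2 LF libraries: 0 of the 8 passed in either comparison with LF, with 2.11% and 0.185% of all genes called. The libraries left out held the highest LF values of Tat, of Sds and of Sgk1, so the differences of these genes shrink by construction. Other genes moved in the same comparison: 11 of 15 measured immediate early genes, which respond within minutes to many stimuli, were lower in HF than in LF, with summed levels of 1706 and 1177 CPM in LF 1 and LF 2, 258 to 570 in the other LF libraries and 188 to 356 in HF. All 3 measured adipocyte markers were higher in HF (23.7 to 42.5 CPM summed in LF and 41.2 to 202 in HF), and 4 of 5 B cell markers were higher, each at a mean under 1 CPM. The comparison of HFLF with LF had 13 of the 15 immediate early genes lower, and there 1 of 3 adipocyte and 4 of 5 B cell markers were higher. Without LF 1 to LF 4, 0 immediate early genes, 1 adipocyte marker and 0 B cell markers passed in HF against LF. Their part in the results for the 8 genes was not tested.

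**Figure D3:**
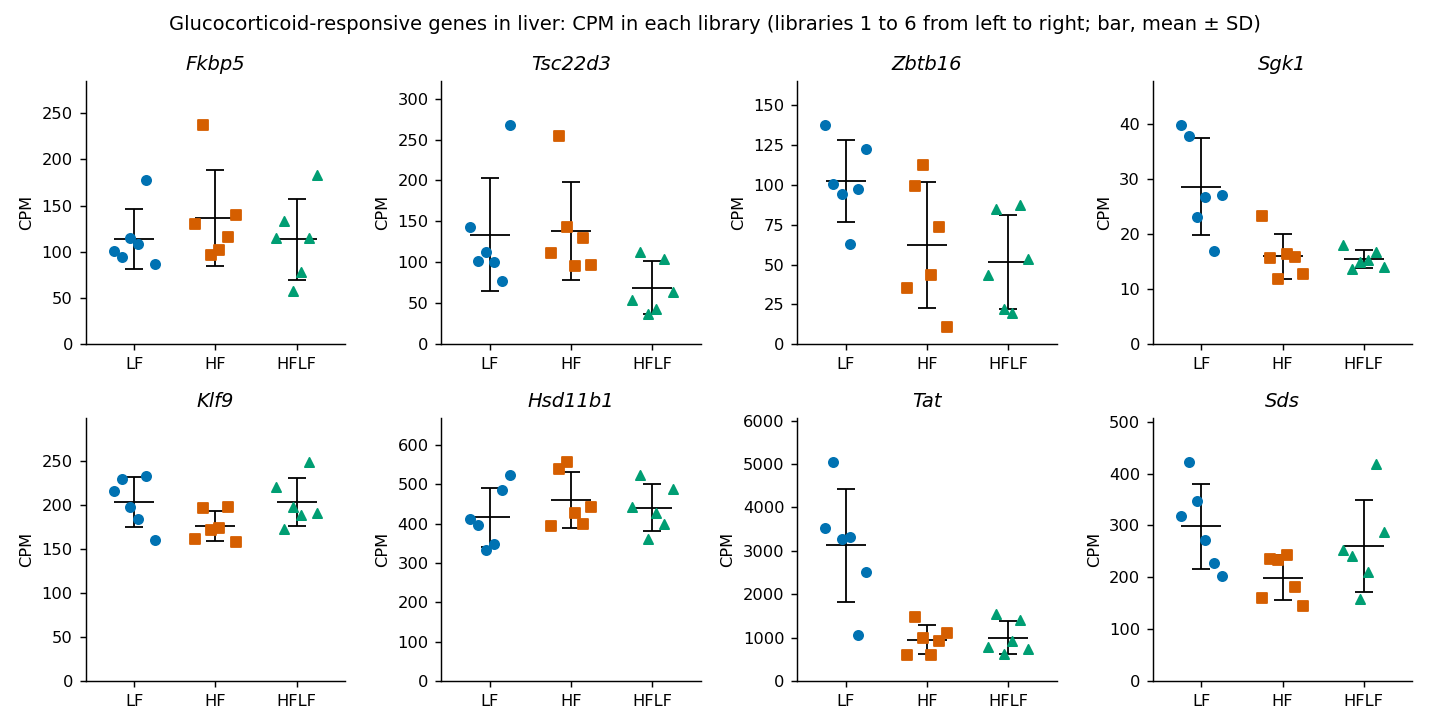
CPM of the 8 genes in each liver library by diet (linear axes from 0; each point 1 library, numbered 1 to 6 from left to right; bar, mean ± SD, n = 6). Tat and Sgk1 are high in most LF libraries but not in LF 5, and the HFLF points of Tsc22d3 reach 113 CPM at most, while LF and HF hold 1 library each above 250 CPM.

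Tat stood at 1061 to 5057 CPM (median 3295) in LF liver, 602 to 1479.6 (median 957) in HF and 611 to 1532 (median 850) in HFLF. LF 1 to LF 4 and LF 6 lay above all libraries of the other diets, and LF 5 lay inside them. It fell by 1.72 ± 0.32 on the log2 scale from LF to HF (edgeR adjusted p = 0.00118) and by 1.64 ± 0.32 from LF to HFLF (edgeR adjusted p = 0.00289), and HFLF against HF gave 0.07 ± 0.32 (95% interval -0.55 to 0.69). Without LF 1 to LF 4, which leaves LF 5 (1061 CPM) and LF 6 (2509 CPM), the differences were -0.91 (edgeR adjusted p = 0.233) and -0.84 (edgeR adjusted p = 0.363). Without LF 1 and LF 2 alone they were -1.42 and -1.35, and both passed (edgeR adjusted p = 0.0095 and 0.0208).

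Sds ranged from 202 to 423 CPM (median 295) in LF liver, 144 to 242 (median 208) in HF and 158 to 418 (median 246) in HFLF. LF 1 to LF 4 lay above all HF libraries, LF 5 and LF 6 lay inside them, and HFLF overlapped both. It fell by 0.58 ± 0.22 on the log2 scale from LF to HF (edgeR adjusted p = 0.0440) and gave -0.19 ± 0.21 for HFLF against LF. The call was lost with upper-quartile factors (edgeR adjusted p = 0.0720), with limma voom (adjusted p = 0.0779), without LF 1, 2, 3 or 4 or HF 1, 5 or 6 taken out 1 at a time (edgeR adjusted p up to 0.121), and without LF 1 and LF 2 together (-0.39, edgeR adjusted p = 0.238). Plbd2, which shares exon bases with Sds, had a mean of 1704 counts in liver.

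Sgk1 was the least abundant of the 8 in liver, at 16.8 to 39.8 CPM (median 27.0) in LF, 11.8 to 23.2 (median 15.7) in HF and 13.7 to 18.1 (median 15.1) in HFLF. LF 1 and LF 2 were highest, LF 5 lay inside the HFLF range, and LF 3 and LF 5 lay inside the HF range. It fell by 0.84 ± 0.18 on the log2 scale from LF to HF (edgeR adjusted p = 0.00265) and by 0.89 ± 0.19 from LF to HFLF (edgeR adjusted p = 0.00355). Without LF 1 to LF 4 the differences were -0.46 and -0.50 (edgeR adjusted p = 0.248 and 0.295), and without LF 1 and LF 2 they were -0.55 and -0.60 and both passed (edgeR adjusted p = 0.0265 and 0.0291).

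**Figure D4:**
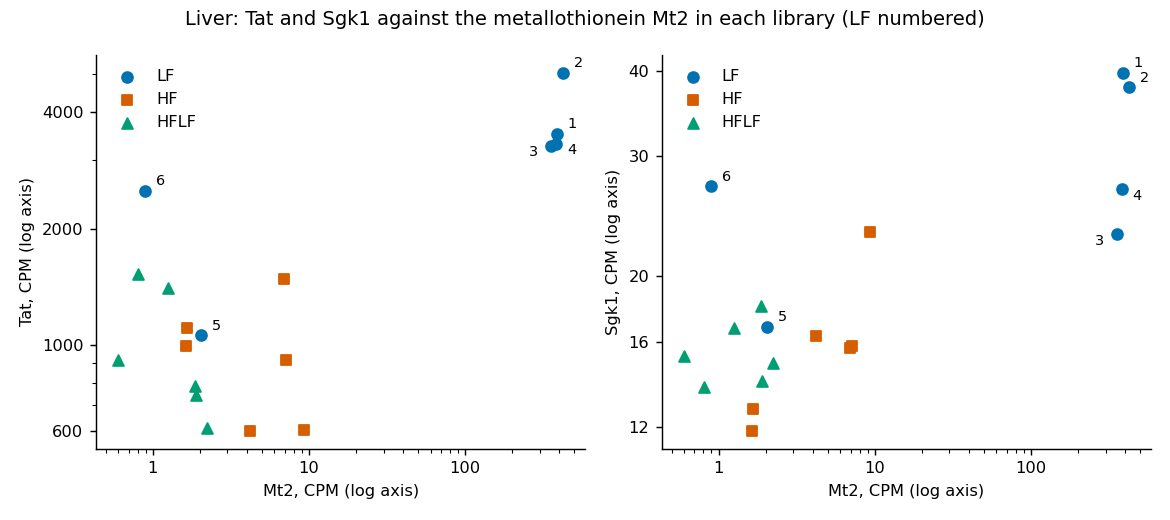
CPM of Tat (left) and Sgk1 (right) against CPM of Mt2 in the 18 liver libraries (log axes; circles LF, squares HF, triangles HFLF; LF libraries numbered). LF 1 to LF 4 lie at 354 to 422 CPM of Mt2 and apart from LF 5 and LF 6, which lie at 2.04 and 0.89 CPM together with the HF and HFLF libraries.

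Tsc22d3 ranged from 77.4 to 268 CPM (median 107) in LF liver, 95.01 to 255 (median 120) in HF and 36.6 to 113 (median 58.8) in HFLF. LF 6 and HF 2 were the highest, and HFLF 1, 3, 4 and 6 lay under every LF and HF library. HFLF against LF gave -0.95 ± 0.35 on the log2 scale (edgeR adjusted p = 0.0568) and HFLF against HF gave -1.004 ± 0.35 (edgeR adjusted p = 0.0984), so neither passed. The former passed with DESeq2 (adjusted p = 0.0187) and without robust estimation (edgeR adjusted p = 0.0457), and also without LF 5, HFLF 2 or HFLF 5 (edgeR adjusted p = 0.0238 to 0.0433). The latter passed with DESeq2 (adjusted p = 0.0289) and with limma voom (adjusted p = 0.0310). HF against LF gave 0.05 ± 0.34.

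Relative to its mean, Zbtb16 had the widest spread of the 8 in HF and HFLF liver (SD of 63.4% and 56.9% of the mean), at 62.9 to 138 CPM (median 99.3) in LF, 10.5 to 113 (median 58.6) in HF and 19.5 to 87.5 (median 48.8) in HFLF. HF 6 was the lowest library and the groups overlapped. Its mean was lower by 0.72 ± 0.46 on the log2 scale in HF (edgeR adjusted p = 0.241) and by 0.98 ± 0.47 in HFLF (edgeR adjusted p = 0.138) than in LF, and neither passed.

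Fkbp5, Hsd11b1 and Klf9, which were lower in HF eWAT, did not pass in any liver comparison. Fkbp5 ranged from 87.1 to 177 CPM (median 105) in LF liver, 96.1 to 237 (median 123) in HF and 57.1 to 183 (median 115) in HFLF, with fold changes of 0.27 ± 0.26 (HF against LF, 95% interval -0.25 to 0.79) and 0.00 ± 0.26 (HFLF against LF). Hsd11b1 was even across diets, at 333 to 523 CPM (median 404) in LF, 394 to 557 (median 435) in HF and 361 to 524 (median 434) in HFLF. Its fold change was 0.14 ± 0.12 for HF against LF (95% interval -0.10 to 0.39), which turned to -0.13 without LF 1 to LF 4. That fit keeps LF 5 and LF 6, which held its highest LF values (484 and 523 CPM), so the turn follows from the libraries kept. Klf9 stood at 160 to 232 CPM (median 206) in LF, 157 to 197 (median 172) in HF and 172 to 249 (median 194) in HFLF. HF against LF gave -0.21 ± 0.10 (edgeR adjusted p = 0.123), and this passed without LF 6 (-0.26, edgeR adjusted p = 0.0407).

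Of 30 other glucocorticoid-induced genes in liver, 15 were lower and 3 higher in HF than in LF, with a median of -0.75 against 0.00 over all genes. The metallothionein gene Mt2 fell by 5.63 ± 1.09 on the log2 scale, Igfbp1, which binds insulin-like growth factors, fell by 4.94 ± 0.87, Irs2, an adaptor of the insulin receptor, fell by 1.67 ± 0.29, and the arrestin-domain gene Arrdc2 rose by 1.01 ± 0.18 (edgeR adjusted p of 0.00071 to 0.0014). In HFLF against LF 16 were lower and 1, Mertk, a receptor kinase for cell clearance, was higher, beside 12.4% of all genes called lower. Without LF 1 to LF 4 these counts dropped to 1 lower and 0 higher of 30 in HF against LF, and to 0 in HFLF against LF. In the LF 1 to LF 4 libraries the acute-phase gene Saa1 stood at 1057 to 3778 CPM, against 15.3 and 28.3 CPM in LF 6 and LF 5, and 23 of 24 acute-phase genes were lower in HF than in LF (median -1.33), beside 18.5% of all genes. Without LF 1 to LF 4, 0 of the 24 were lower and 1 was higher (median 0.13). These libraries were set apart after their high metallothionein and acute-phase counts were seen. The loss of such calls therefore follows from the choice of libraries.

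Of 11 genes for the receptor, its chaperones and cofactors, 6 were lower and 0 higher in HF than in LF liver, with Stip1 (-0.83 ± 0.13), Hspa8 (-0.95 ± 0.15), Hsp90ab1 (-0.49 ± 0.10) and Ptges3 (-0.40 ± 0.08), all of the chaperone machinery, at the smallest p. In HFLF against LF 6 were lower, among them Hsp90aa1 (-1.43 ± 0.23), and 1 was higher. Over all genes, 18.5% were called lower in HF and 12.4% in HFLF than in LF. Nr3c1 stood at 58.5 CPM in LF, 66.6 in HF and 68.2 in HFLF liver and did not pass. Without LF 1 to LF 4 these counts were 1 lower in HF and 0 in HFLF.

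Of 6 measured genes for steroid supply and clearance, Serpina6, which encodes the blood carrier of corticosteroids, rose by 1.04 ± 0.27 on the log2 scale in HF liver (131 to 268 CPM, edgeR adjusted p = 0.0072) and the steroid reductase gene Akr1d1 rose by 0.79 ± 0.28. H6pd fell by 0.49 ± 0.11 and the other steroid reductase gene, Srd5a1, fell by 0.48 ± 0.15. Of 22 amino acid breakdown genes, to which Tat and Sds are kin in function, 7 were higher and 3 lower in HF than in LF liver, with Sdsl, a relative of Sds, lower by 1.01 ± 0.20 and Cbs, of cysteine synthesis, lower by 0.45 ± 0.11. Prodh, of proline breakdown, and Uroc1, of histidine breakdown, were higher by 0.76 ± 0.20 and 0.45 ± 0.11. None of these 28 genes passed without LF 1 to LF 4. Of all genes, 34.8% were called in HF against LF with every library kept (18.5% lower).

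**Figure D5:**
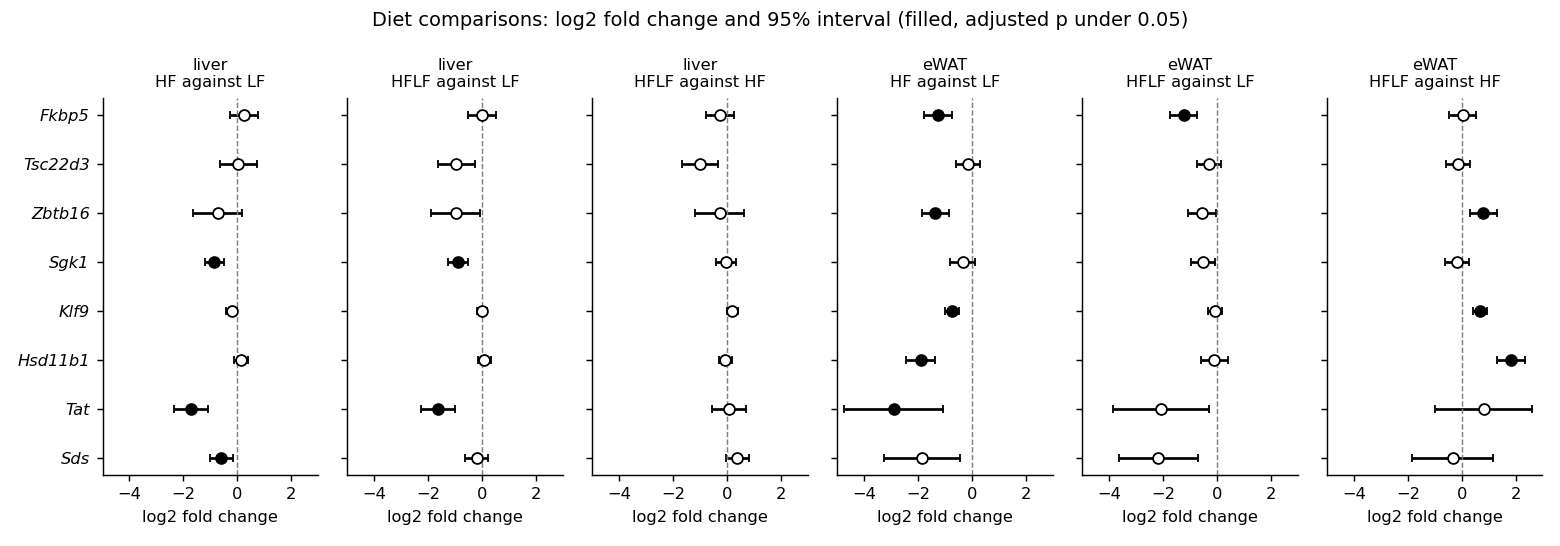
Log2 fold changes of the 8 genes in the 3 diet comparisons of each tissue (points, edgeR estimates; bars, nominal 95% intervals; filled points, adjusted p under 0.05; n = 6 per diet). The bars were made from the SE by the normal distribution and are narrower than the test implies. Filled points left of 0 are Tat and Sgk1 in both liver comparisons with LF, Sds in 1 of them, 5 genes in HF against LF eWAT and Fkbp5 in HFLF against LF eWAT; Hsd11b1, Klf9 and Zbtb16 are filled right of 0 in HFLF against HF eWAT.

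Tissues were compared by an interaction term over the 13206 genes in both tables, which treats all 36 libraries as independent. The change from LF to HF was lower in eWAT than in liver for Hsd11b1 by 2.10 ± 0.30 on the log2 scale (edgeR adjusted p = 3.2e-06), for Fkbp5 by 1.59 ± 0.39 (edgeR adjusted p = 0.00136) and for Klf9 by 0.57 ± 0.17 (edgeR adjusted p = 0.00629), 3 of 8 where 45.6% of all genes differed (24.6% in that direction). Without liver LF 1 to LF 4, Hsd11b1 and Klf9 still passed (edgeR adjusted p = 0.00227 and 0.0475) and Fkbp5 did not (edgeR adjusted p = 0.0573). From HF to HFLF, Hsd11b1 (by 1.90 ± 0.30, edgeR adjusted p = 0.000181) and Klf9 (by 0.49 ± 0.17, edgeR adjusted p = 0.0424) changed more upward in eWAT, 2 of 8 where 18.0% of all genes differed (8.78% upward). From LF to HFLF, Fkbp5 differed by 1.27 ± 0.39 in the lower direction in eWAT (edgeR adjusted p = 0.0359), 1 of 8 where 8.56% of all genes differed (4.96% in that direction), and this was lost without liver LF 1 to LF 4 (edgeR adjusted p = 0.476). For Tat, Sgk1, Zbtb16, Tsc22d3 and Sds no tissue difference passed, which does not show that the tissues respond alike: the interaction for Tat from LF to HF was -1.27 ± 0.90.

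Some pairs of the genes varied together from library to library within a diet, and most did not pass. Tat and Sds were left out in eWAT for their low counts, which leaves 15 pairs of 6 genes. Over the 18 eWAT libraries with diet means removed, Fkbp5 and Klf9 followed each other (r = 0.78, permutation p = 0.00051, adjusted p = 0.00765 over 15 pairs; Spearman's rho = 0.76, permutation p = 0.00115), with r = 0.75 without the 2 libraries farthest from the median of Fkbp5. Tsc22d3 and Zbtb16 did so as well (r = 0.69, permutation p = 0.00202, adjusted p = 0.0151; Spearman's rho = 0.77, permutation p = 0.00033; r = 0.67 without the 2 farthest). Of the 15 pairs, these 2 passed, and r ranged from -0.04 (Zbtb16 and Sgk1) to 0.78. In liver, 0 of 28 pairs passed, with r from -0.35 (Sgk1 and Hsd11b1) to 0.69, the highest being Tsc22d3 and Zbtb16 (r = 0.69, permutation p = 0.00216, adjusted p = 0.0605; Spearman's rho = 0.83, permutation p = 8e-05; r = 0.73 without the 2 farthest). Genes of 1 library share its depth and cell makeup.

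By the same measure, Klf9 ranked the fifth of 11738 eWAT genes most like Fkbp5 (r = 0.78), after Tob2 (0.81), Phyhd1 (0.79), Hif3a (0.79) and 1810032O08Rik (0.78). In liver the genes most like Fkbp5 over 18 libraries were Por (0.94), Pptc7 (0.84), Fmo2 (0.82), Ddt (0.82) and Bnip3 (0.79), out of 10009 compared. Por encodes the reductase that feeds electrons to cytochrome P450 enzymes. For Tsc22d3 they were Klhl21 (0.90), Klf13 (0.87), Il6ra (0.85), Klf15 (0.85) and Cdc42ep4 (0.83) in liver, where Zbtb16 ranked 35 (0.69), and Tada3 (0.83), Slc10a6 (0.83), Mrps36 (0.82), Mien1 (0.82) and Kcna5 (0.82) in eWAT, where Zbtb16 ranked 117 (0.69). These correlations are descriptions of the 18 libraries.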

How the data were processed

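RNA-seq of 2 tissues on 3 diets gave 36 libraries, per the labels' protocols. Reads were processed with STAR and GRCm38.p6, per the submitters' processing notes; these name no counting tool, annotation release or strand setting. The authors deposited raw whole-number counts per gene, 1 table a tissue, and all columns were mapped to libraries. Each table held genes with a CPM above 0.5 in at least 6 libraries. The tables named RPKM held values that did not belong to the genes beside them and were not used. Symbols and exon lengths came from GENCODE M21 on GRCm38, and promoters from RefSeq on GRCm38.p6.

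Counts were fitted per tissue in edgeR 4.0.16 (R 4.3.3) with the 3 diets as groups, TMM factors and robust quasi-likelihood, with p-values adjusted by Benjamini and Hochberg across each table and called at 0.05. The tissue difference was an interaction over 36 libraries. The code was tested on simulated counts with known changes in HF against LF. True log2 changes of 1 were called for 80.6% of changed genes in liver and 66.3% in eWAT. Changes of 2 were called for 99.0% and 86.9%, and 8 and 7 unchanged genes were called. A gene that did not pass may therefore still differ. Alternatives were RLE and upper-quartile factors, DESeq2 1.42.0, limma 3.58.1 voom, other filters, 2-diet fits, a replicate block, and leaving out libraries. Correlations used log2 CPM with a prior count of 2, diet means removed and 100000 permutations within diets, in Python 3.11.15 and scipy 1.17.1.

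The members, lists, rule for naming list genes (the 4 with the smallest p per comparison and list) and tests were chosen with earlier results of these data known. For likeness the 5 genes with the highest r and a mean log2 CPM of at least 2 were taken. A few values outside the rule (Nr3c1, Saa1, Col1a1, Alb, Crisp1) were chosen after their values were seen. The sets of libraries left out together were chosen after seeing the data. No libraries of 1 group were near copies: chi-square per degree of freedom between them was at least 6.87.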

Additional observations from a re-analysis of the deposited data

Results flagged for a closer look

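In each of the 48 groups of 6 libraries (8 genes, 3 diets, 2 tissues), the gap between the highest or lowest library and its neighbour was compared with the group's range on log2 CPM, and 0 groups passed Dixon's 95% critical value. Of 24 differences between tissues tested as interactions, 6 passed. They are eWAT minus liver on the log2 scale. For HF against LF they were -1.59 for Fkbp5, -2.10 for Hsd11b1 and -0.57 for Klf9, where the gene was lower in HF in eWAT and did not pass in liver. For HFLF against LF it was -1.27 for Fkbp5, lower in HFLF in eWAT and level in liver. For HFLF against HF they were 1.90 for Hsd11b1 and 0.49 for Klf9, higher in HFLF in eWAT and not passed in liver. With 1 library number left out of both tissues at a time, the Fkbp5 difference for HFLF against LF did not pass without LF 1, 2, 3 or 4 or HFLF 1, 2 or 6 (edgeR adjusted p up to 0.0984), and the Klf9 difference for HFLF against HF did not pass without HF 2, 3, 4, 5 or 6 or HFLF 1, 2, 4 or 6 (edgeR adjusted p up to 0.105).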

How the results depend on the processing

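Over the 8 genes, 558 of 618 fold changes kept their direction and side of the threshold under other settings. With 1 library left out, 780 of 864 did so. For the tissue differences among these, 1 library number was left out of both tissues. Counts of called members moved by no more than 1.5 times in 68 of 78 and 83 of 108 cases. For the values that turned or moved, the cause was not tested, except that leaving out libraries leaves fewer samples.

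Near 0, the liver HFLF against LF value of Fkbp5 turned to 0.0030 with RLE factors, 0.056 with upper quartiles, 0.0030 with DESeq2 and 0.028 at a mean CPM of at least 5. That of Klf9 turned to 0.00047 with RLE factors, 0.064 with upper quartiles, 0.00028 with DESeq2, 0.046 with voom, 0.029 at that mean CPM, 0.0031 with the replicate block, 0.052 without LF 1 to 4 and 0.069 without LF 1 and 2. In liver HFLF against HF, Sgk1 turned to 0.028 with voom, and 1 member was called with DESeq2 and 1 with voom. Without liver LF 1 to 4, 0 members were called in HF and 0 in HFLF against LF. Tsc22d3 then turned to -0.32 in HF against LF (-0.014 without LF 1 and 2), Hsd11b1 to -0.13 in HF and -0.19 in HFLF, and Sds to 0.29 in HFLF. Those LF libraries held the highest LF values of Tat, of Sds and of Sgk1, so leaving them out raises these genes against LF by construction. LF 5 and LF 6, which remain, held the highest LF values of Hsd11b1, and LF 6 held the highest of Tsc22d3. The turns of Hsd11b1 and Tsc22d3 therefore also follow from the libraries kept.

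In eWAT HFLF against HF, Fkbp5 turned to -0.11 with voom and -0.079 without the 5 libraries richest in Alb. In HFLF against LF, 0 members were called with 2 diets alone, with the replicate block and without either set of libraries. Both sets hold the 3 highest LF libraries for Tat and Sds, so leaving them out raises the values of these 2 genes against LF by construction. Without the Alb set, Sds turned to 0.21 in HF and Tat to 0.46 in HFLF against LF. Without the epididymal set, Tat and Sds turned to 0.35 and 0.63 in HF and to 0.46 and 0.035 in HFLF against LF. In the tissue difference for HFLF against LF, Tat turned to 0.35 with voom and a replicate block, 2 members were called with DESeq2 and 0 without liver LF 1 to 4. Those libraries left out, Tsc22d3 turned to 0.15 for HF against LF, and Sgk1 to -0.021 and Hsd11b1 to 0.092 for HFLF against LF.

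With 1 library left out, liver HFLF against LF ranged from -0.069 to 0.041 for Klf9 and -0.19 to 0.17 for Fkbp5, liver HF against LF from -0.22 to 0.37 for Tsc22d3, and liver HFLF against HF from -0.12 to 0.094 for Sgk1 and -0.090 to 0.25 for Tat. In eWAT, Tsc22d3 ranged from -0.29 to 0.0039 in HF against LF and -0.23 to 0.0096 in HFLF against HF, Hsd11b1 from -0.17 to 0.075 and Klf9 from -0.12 to 0.029 in HFLF against LF, and Fkbp5 from -0.096 to 0.22 in HFLF against HF. Members called in eWAT HFLF against LF ranged from 0 to 1. For tissue differences 1 library number was left out of both tissues at a time. Members called then ranged from 0 to 2 in HFLF against LF and from 1 to 2 in HFLF against HF. Tat ranged from -1.01 to 0.63 in the former and Sgk1 from -0.22 to 0.031 in the latter.

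Same-numbered libraries of 2 diets correlated at -0.36 to 0.58 in their deviations, with at most 3 of 6 pairs over 0.1, and a library correlated best with its own number in 1 or 2 of 6 cases, so the numbers were not taken as pairs. Same-numbered liver and eWAT libraries of 1 diet correlated at -0.082 to 0.19 and best with their own number in 3 of 6 cases in each diet. This was more often than between diets, and no label says whether they share a mouse. The interaction test in edgeR treated them as independent. With a replicate block in limma voom, the same counts of members, 3, 1 and 2, differed between tissues. With the number as a replicate block, Sds in liver HF against LF (-0.58, adjusted p = 0.0714), Tat in eWAT HF against LF (-2.30, adjusted p = 0.0885) and Fkbp5 in eWAT HFLF against LF (-1.19, adjusted p = 0.0814) did not pass, and Tsc22d3 in liver HFLF against LF did (-1.02, adjusted p = 0.0435). Depth limits Tat and Sds in eWAT, with as few as 1 and 2 counts in a library.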
